A study of Mus musculus with 64 samples.

Results

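Potassium channels other than Kcnj1, Kcnj10 and Kcnj16 were examined in hand-dissected early distal convoluted tubules (DCT) of the mouse kidney. The genes were the protein-coding genes whose symbol starts with Kcn, without those 3, with a mean of at least 1 CPM (counts scaled to the same library total) over the 32 control libraries. Of the 94 protein-coding Kcn genes in a table of 54331 genes, 91 were candidates after the 3 were set aside, 77 reached the threshold and 14 did not. The genes were thus chosen by their measured control level, which is described below without a test. The choice also favours genes that happened to be high in the controls, which pulls their furosemide minus control differences towards lower values.

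All mice carried the Pvalb-tdTomato transgene on a C57BL/6 background, which marks parvalbumin-expressing cells of the early DCT with a red fluorescent protein. Males and females were fed for 12, 24, 48 or 96 h on a control diet or on one containing furosemide, and each time had its own controls. Furosemide is a loop diuretic and acts on the nephron segment before the DCT, the thick ascending limb, where it blocks salt uptake. The 64 libraries therefore formed 16 groups of 4, with 32 control and 32 furosemide libraries. The labels number the replicates but do not state that different mice gave them. What the p-values take as error is then the scatter among libraries, part of which may be technical.

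Potassium channels set the membrane voltage of the DCT cell. In this segment the basolateral voltage, held by inward rectifiers, is coupled through chloride and WNK kinases to the sodium chloride cotransporter NCC. Apical channels let potassium leave into the urine. Outside the kidney most of the 77 genes are best known from neurons, heart, muscle or secretory epithelia. Voltage-gated alpha subunits open on depolarization, two-pore-domain subunits carry background currents, inward rectifiers pass potassium best near the resting voltage, and calcium-activated channels follow intracellular calcium. Auxiliary subunits change the gating or trafficking of a pore and carry no current alone.

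Total counts were 12.7 to 41.1 M per library, with a median of 20.5 M. The 6 early DCT markers, which include Slc12a3 (NCC) and Pvalb, summed to between 6728 and 18100 CPM per library, and none of the markers of any cell type listed had a median of 0. A set of 3 libraries stood apart from their groups, with a median Spearman correlation under 0.75 to them. That correlation was taken over the 11131 genes with a mean log2 CPM above 3 only. The libraries were replicate 3 of the female controls at 24 h, replicate 4 of the female controls at 48 h and replicate 4 of the furosemide-fed males at 12 h. In the first, 23 of the 77 channel genes had no count. The second held the highest level of 6 channel genes among the 64 libraries. That alone did not set it apart: replicate 3 of the male controls at 48 h held 8 and replicate 2 of the female controls at 48 h held 7. Results that rest on these 3 libraries are given with and without them.

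Most of the 77 genes were scarce. In the controls, 11 had a mean of at least 10 CPM, 37 had 2 to 10 CPM and 29 had less than 2 CPM. Per kilobase of exon, their median was 0.597 CPM, against 1.41 CPM for all 21803 protein-coding genes. The threshold of 1 CPM was passed by 76.5% of those protein-coding genes and also by 46.2% of 1135 odorant receptor genes, most of which have no known role in this tubule. It was passed by 0 of 35 bitter taste receptor genes. The odorant receptors had a median of 0.278 CPM per kilobase, and 70 of the 77 channel genes lay above that level. Only 5 channel genes, Kcnk1, Kcnq1, Kcnk4, Kcnj13 and Kcnmb4, lay above 3.1 CPM per kilobase, the 90% quantile of the odorant receptors. The odorant receptors summed to a median of 15165 CPM per control library, against 597 CPM for the 77 channel genes. Against the bitter taste receptors the picture differed: 77 channel genes lay above their median (0.141 CPM per kilobase) and 71 above their 90% quantile (0.243). Just inside the threshold were Kcnh6 with 1.07 CPM, Kcnj3 with 1.12 CPM and Kcnv2 with 1.19 CPM. Just outside it were Kcnv1 with 0.96 CPM, Kcnh8 with 0.94 CPM and Kcna4 with 0.93 CPM.

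**Figure D1:**
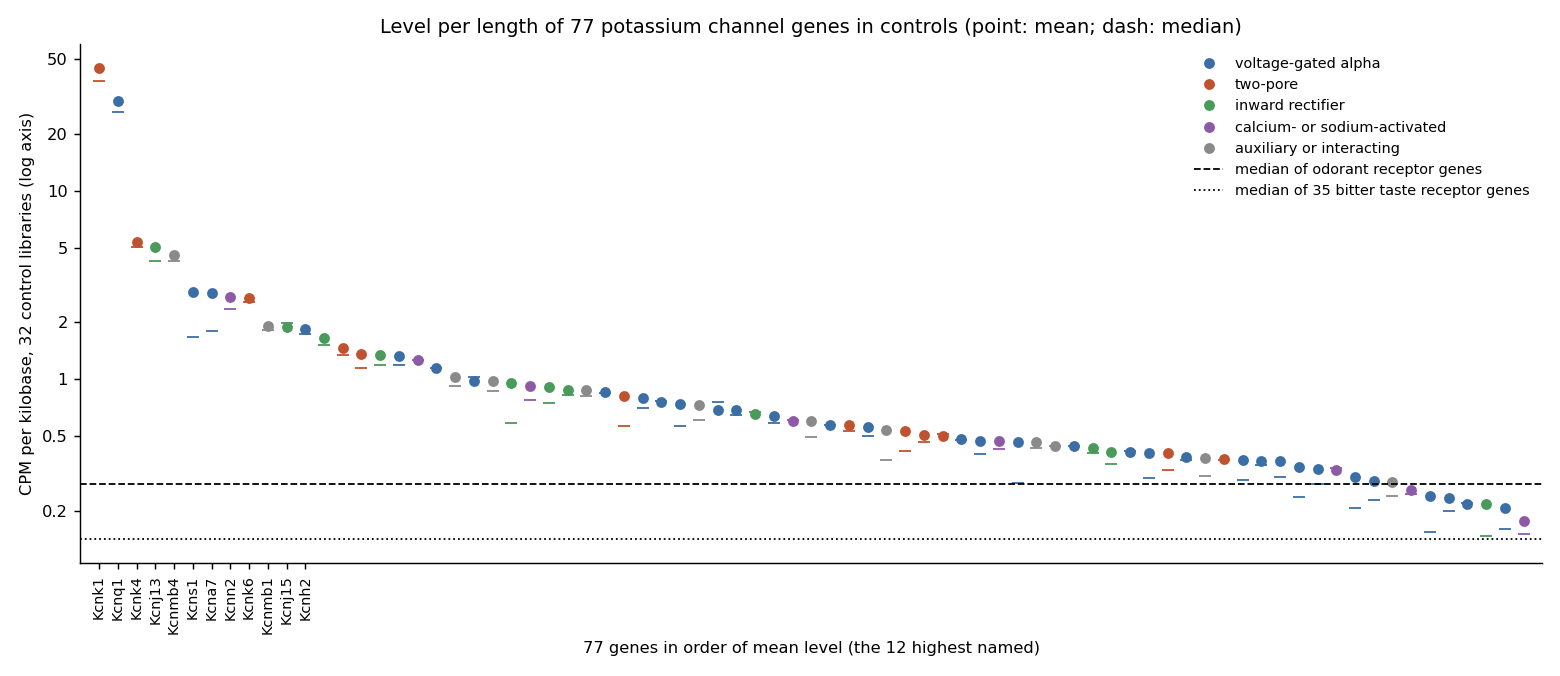
Level per length (CPM per kilobase of exon, log axis) of the 77 potassium channel genes over the 32 control libraries, coloured by family, with points for means, dashes for medians and names for the 12 highest. Kcnk1 at 45.2 and Kcnq1 at 30.0 CPM per kilobase stand above all others, and 70 genes lie above the median of 1135 odorant receptor genes.

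By family, the 12 two-pore genes held 40.55% of the summed level per length of the 77 genes and the 34 voltage-gated alpha genes 36.45%. The 11 inward rectifiers held 9.75%, the 12 auxiliary or interacting genes 8.68%, and the 8 calcium- or sodium-activated genes 4.58%. A single gene made up most of each of the first 2 shares: Kcnk1 alone held 30.68% and Kcnq1 20.39%. Without division by length, the order reversed: the voltage-gated alpha genes held 47.35% of the summed CPM and the two-pore genes 27.95%. For comparison, the 3 channels set aside had 224 (Kcnj1), 66.9 (Kcnj16) and 27.4 (Kcnj10) CPM per kilobase in controls.

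Among the two-pore genes, Kcnk1, which encodes the weakly inward rectifying background channel TWIK1, had 45.2 ± 19.2 CPM per kilobase (SD, n = 32). Its unscaled level ran from 47.2 CPM through a median of 85.6 to 226 CPM over the controls. Kcnk4 (TRAAK, opened by membrane stretch and lipids) followed with 5.35 ± 3.78 CPM per kilobase, and Kcnk6 (TWIK2) had 2.70 ± 1.26. Kcnk5, which encodes the alkaline-activated TASK2 of proximal tubule cells, had 0.527 ± 0.365 CPM per kilobase, ranking 44 of 77.

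Among the voltage-gated genes, Kcnq1, whose channel works with Kcne1 in heart and in several epithelia, had 30.0 ± 18.7 CPM per kilobase (SD, n = 32). Its level ran from 72.3 CPM through a median of 108 to 513 CPM, the highest value being that of replicate 4 of the female controls at 48 h. Kcnk1 exceeded Kcnq1 per length in 30 of 32 controls, and Kcnq1 exceeded Kcnk4 in 32 of 32. Kcne1 itself had 0.538 ± 0.902 CPM per kilobase, and 29.63% of its control total came from replicate 1 of the male controls at 12 h. Kcns1, an alpha subunit that modifies other channels and is silent alone, had 2.91 ± 4.31 CPM per kilobase, with 24.76% of its total from the same female control at 48 h that led in Kcnq1. Kcna7 had 2.88 ± 2.97 CPM per kilobase and Kcnh2, the ERG channel of cardiac repolarization, had 1.85 ± 1.07. Kcna1, whose channel has been linked to magnesium uptake in the DCT, had 0.572 ± 0.425 CPM per kilobase and ranked 40.

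In the other families, Kcnj13 (Kir7.1, best known from choroid plexus and retinal pigment epithelium) led the inward rectifiers with 5.04 ± 3.10 CPM per kilobase (SD, n = 32). Kcnj15 (Kir4.2) had 1.89 ± 1.00. Kcnn2, a small-conductance calcium-activated channel, led its family with 2.73 ± 2.25 CPM per kilobase, while Kcnma1, the pore of the large-conductance BK channel that secretes potassium in the distal nephron, had 0.469 ± 0.240. The BK channel's beta subunits Kcnmb4 and Kcnmb1 were higher per length than its pore, with 4.57 ± 2.29 and 1.91 ± 0.895. Without division by length, Kcnma1 had 7.96 CPM, Kcnmb1 8.01 CPM and Kcnmb4 15.2 CPM. Their exonic lengths are 16976, 4191 and 3324 bases, taken over all annotated exons and not over the transcripts expressed here. Below Kcnq1 the order was loose in places: Kcnk4 exceeded Kcnj13 in 18 of 32 controls, Kcnj13 exceeded Kcnmb4 in 14, Kcns1 exceeded Kcna7 in 15 and Kcnj15 exceeded Kcnh2 in 17, so these neighbours did not differ beyond their spread. The order was firmer for Kcnmb4 above Kcns1, in 24 of 32, and for Kcnk6 above Kcnmb1, in 26 of 32. Of the 77 genes, 24 share exonic bases with another annotated gene, which counts without strand cannot separate, and in 3 (Kcnj13, Kcna6 and Kcnmb4) the shared part is over 20% of the exonic length.

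The question of the diet comparisons was which of these genes respond to furosemide. All 77 passed the low-count filter and were tested among 41507 genes with edgeR's quasi-likelihood test and Benjamini-Hochberg adjustment, a gene being called at an adjusted p under 0.05. From here on, levels are CPM with TMM scaling, a correction for library composition, and differences are log2 fold changes, furosemide minus control. Averaged over the 4 times and both sexes, 1 of the 77 genes was called, Kcnj13, which fell. The background was 0.588% of all genes called. At unadjusted p under 0.05 there were 6 channel genes, 4 higher and 2 lower. Of all genes tested, 4036 of 41507 had such a p. The median over the 77 was -0.09, with 54 below 0, and over all genes tested it was -0.04, with 55.83% below 0. For protein-coding genes of 1 to 2 CPM in controls the median was -0.11, with 66.9% below 0. With 1 library left out the members' median ran from -0.11 to -0.03, the latter without replicate 1 of the female controls at 24 h. It was between -0.05 and -0.06 without replicate 2 or 4 of those controls, replicate 4 of the female controls at 12 h or replicate 4 of the furosemide-fed females at 96 h. The number of members below 0 moved with the scaling, to 62 with RLE factors and 68 with total counts only, and to 45 with a replicate block.

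**Figure D2:**
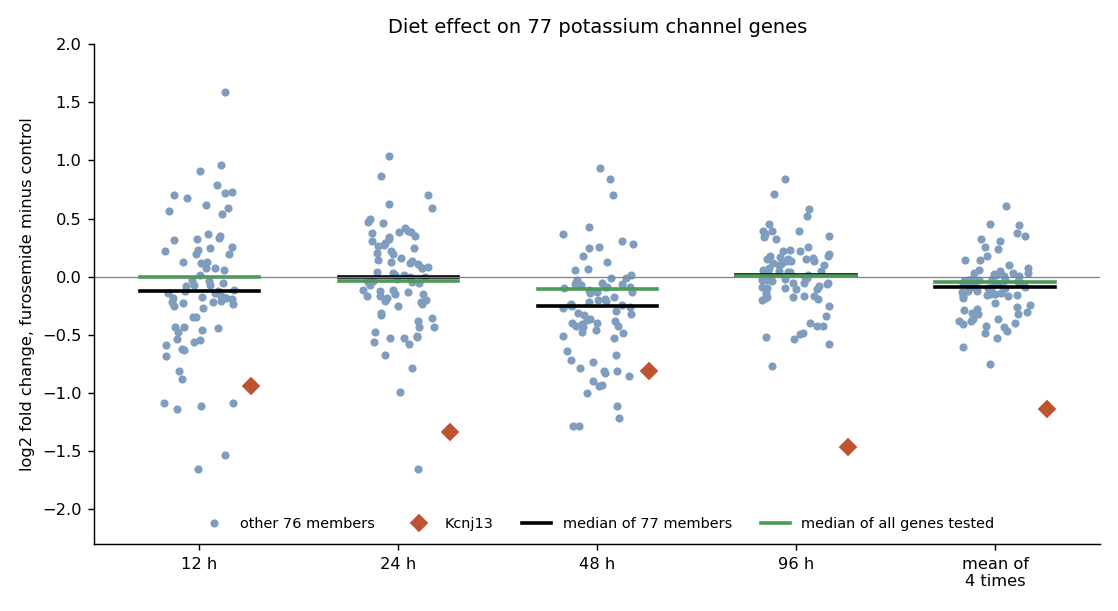
Log2 fold change, furosemide minus control (mean of both sexes), of the 77 potassium channel genes at each time and averaged over the 4 times, 1 point per gene, with horizontal lines for the median of the 77 and of all genes tested. Kcnj13, the diamond, lies below 0 in each column and at -1.14 in the average.

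Kcnj13 (ENSMUSG00000079436) lies on the minus strand of chromosome 1, chr1:87386363-87394729 in GRCm38, with 1270 exonic bases. It had 1.09, 5.53 and 17.8 CPM in the controls (lowest, median and highest, n = 32) and 0.339, 2.30 and 5.58 CPM in the furosemide libraries (n = 32). The means were 6.14 ± 3.85 and 2.79 ± 1.54 CPM (SD). The median library held 101 counts of the gene in controls and 43 under furosemide. Its log2 fold change was -1.14 (SE 0.21, adjusted p = 0.0012, edgeR's quasi-likelihood test). In bulk tubules, fewer cells of a type and less RNA per cell cannot be told apart.

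At 12 h the 8 controls ran from 1.09 through 3.98 to 7.88 CPM of Kcnj13 and the 8 furosemide libraries from 1.10 through 1.85 to 5.36. At 24 h the values were 2.37, 5.85 and 10.4 in controls against 0.339, 1.74 and 5.58. At 48 h they were 2.54, 5.61 and 8.23 against 1.27, 2.84 and 5.23. At 96 h they were 2.50, 7.27 and 17.8 against 1.03, 3.63 and 4.42. The groups overlapped at each time, yet 31 of the 32 furosemide libraries lay below the median of their own controls, 7 of 8 at 12 h and 8 of 8 at each later time. At 96 h 6 of the 8 controls exceeded every furosemide library, and the other 2 controls, 1 of each sex, had about 2.5 CPM.

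**Figure D3:**
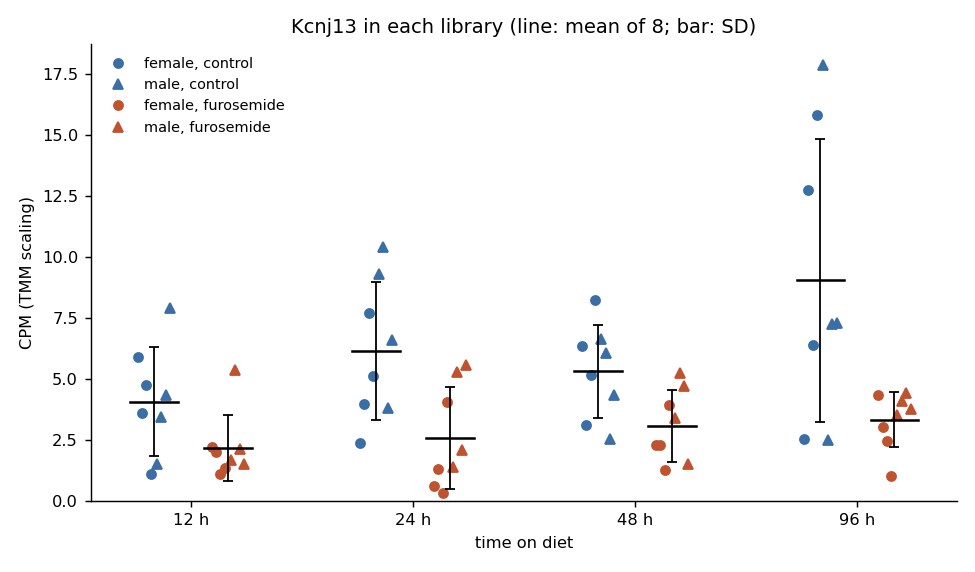
Kcnj13 level (CPM with TMM scaling) in each of the 64 libraries by time, diet and sex, with the mean of 8 libraries as a line and the SD as a bar. The furosemide means of 2.17, 2.59, 3.07 and 3.33 CPM at 12, 24, 48 and 96 h lie below the control means of 4.07, 6.15, 5.30 and 9.04 CPM.

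Single times did not reach the threshold for Kcnj13. The log2 fold changes were -0.94 (SE 0.41, adjusted p = 0.49) at 12 h, -1.33 (SE 0.42, adjusted p = 0.48) at 24 h, -0.81 (SE 0.41, adjusted p = 0.53) at 48 h and -1.46 (SE 0.41, adjusted p = 0.21) at 96 h, all from the edgeR fit. DESeq2 called it at 96 h, with an adjusted p of 0.029 (background 0.419%). Without the 96 h furosemide libraries higher in Lars2 transcript than any 96 h control, edgeR gave -1.17 at 96 h. The effect was not found to differ between times (diet by time, edgeR adjusted p = 1, background 0.012%). In females, the average over times was -1.45 (SE 0.30, edgeR adjusted p = 0.020, background 0.0675%), and in males -0.82 (SE 0.29, edgeR adjusted p = 0.30, background 0.00723%). The difference between the sexes, male minus female, was 0.63 (SE 0.41, edgeR adjusted p = 0.91, background 0%), so a stronger fall in females was not shown.

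The fall of Kcnj13 over all times was called in each of the 71 alternative fits run, with values from -1.27 to -1.04 and a highest adjusted p of 0.025 by edgeR. Of these fits, 64 left out 1 library each and kept the main fit's genes and its trend of spread with level. They share nearly all libraries and are not independent. The others changed the scaling, filter, block, tool or set of libraries. Without the 3 low-similarity libraries it was -1.04 (SE 0.21, edgeR adjusted p = 0.00059). Of the 1270 exonic bases of Kcnj13, 623 (49.1%) overlap exons of Gigyf2 on the other strand, so part of its counts could come from that gene. Gigyf2 had 45.7 CPM and a diet difference over all times of -0.01 (SE 0.09, edgeR adjusted p = 1). Over all times the podocyte list also moved down, with 0 of 5 genes called, 5 of 5 below 0 and a median of -0.51. Its sums ran from 23.7 to 3001 CPM in controls and from 21.0 to 185 CPM under furosemide. The 3001 CPM was in a 12 h control, where the control median was 45.4 CPM. So did the erythroid list, with 0 of 5 called, 5 of 5 below 0 and a median of -0.92. Erythroid sums ran from 0.38 to 414 and from 0.22 to 453 CPM. At 12, 24, 48 and 96 h, podocyte medians were -1.105, -0.14, -0.88 and 0.10. Erythroid medians at these times were -2.04, 2.80, -5.24 and 0.35. Among early DCT markers 5 of 6 (median -0.06), among principal cell markers 5 of 7 (median -0.29) and among intercalated cell markers 4 of 6 (median -0.06) were below 0, none called. The same held for 4 of 6 immune (median -0.03) and 4 of 6 vascular smooth muscle, mesangium and renin cell markers (median -0.17). Above 0 were 4 of 6 thick ascending limb (median 0.11) and 3 of 5 late DCT and connecting tubule markers (median 0.01). So were 4 of 6 endothelial (median 0.04) and 3 of 6 proximal tubule markers (median 0.15), none called. The part of such cells in the fall was not tested.

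The bases upstream of the annotated starts of Kcnj13 and of Kcnh2, the genes with the smallest p in opposite directions, are shown to give the local sequence around each gene's start; the data do not bear on binding there. They are the 250 bases before the start in the RefSeq promoter table (GRCm38.p6), 5′ to 3′ along the gene's minus strand, at chr1:87394730-87394979 for Kcnj13 and chr5:24329592-24329841 for Kcnh2. The Kcnh2 start lies inside the span of the gene, chr5:24319589-24351604, so it is one of several possible starts. Capitals mark matches on either strand to 3 motifs. One is the TATA box, TATAAA. Another is the CCAAT box. The last is a half-site of steroid receptors, AGAACA. No marked match overlaps another.
Kcnj13: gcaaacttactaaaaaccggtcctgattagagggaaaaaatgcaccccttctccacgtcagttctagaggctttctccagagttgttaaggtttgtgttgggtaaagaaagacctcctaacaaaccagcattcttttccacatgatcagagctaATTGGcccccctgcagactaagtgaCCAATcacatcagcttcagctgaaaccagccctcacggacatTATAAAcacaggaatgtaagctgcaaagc
Kcnh2: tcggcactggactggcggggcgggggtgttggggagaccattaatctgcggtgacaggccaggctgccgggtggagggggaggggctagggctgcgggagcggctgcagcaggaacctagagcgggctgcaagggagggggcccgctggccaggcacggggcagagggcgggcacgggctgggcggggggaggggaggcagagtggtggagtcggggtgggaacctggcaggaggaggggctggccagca

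The Kcnj13 sequence is 45.2% G and C with 3 CpG dinucleotides, and holds 1 TATAAA match and 2 CCAAT matches, 1 of them on the other strand (ATTGG). The Kcnh2 sequence is 73.6% G and C with 14 CpG and no match to the 3 motifs. Of 27025 genes in that table, 13.0% hold the TATA box, 34.5% the CCAAT box and 16.2% the half-site in the 250 bases, on either strand. Of the 53 channel genes matched to it by symbol, 3.8%, 32.1% and 7.5% do. At least 10 CpG occur in 24 of the 53 (45.3%), against 38.2% of all genes.

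Kcnh2 came closest to a call in the other direction. It had 2.35, 7.33 and 35.8 CPM in controls and 2.69, 12.1 and 33.1 CPM in furosemide libraries (lowest, median and highest, n = 32 each), with means of 8.90 ± 6.45 and 13.1 ± 7.58 CPM (SD). Controls and furosemide libraries overlapped over nearly the whole range, and 25 of 32 furosemide libraries lay above the median of their own controls. The log2 fold change over all times was 0.60 (SE 0.16, adjusted p = 0.054, edgeR's quasi-likelihood test), just short of a call. It was 0.59 in males and 0.62 in females.

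The Kcnh2 call depended on the libraries and the tool. DESeq2 gave 0.56 (SE 0.15) with an adjusted p of 0.019. Without the 3 low-similarity libraries edgeR gave 0.68 (SE 0.15, adjusted p = 0.0018). Leaving out single libraries brought it under the threshold in 14 of 64 fits, with adjusted p from 0.0040 to 0.050. The female libraries concerned were control replicates 1 at 12 h, 3 at 24 h and 4 at 48 h, and furosemide replicates 4 at 12 h, 1 at 24 h, and 1 and 3 at 48 h. The male ones were control replicates 4 at 24 h and 2 at 48 h, and furosemide replicates 1 at 12 h, 4 at 24 h, 1 and 2 at 48 h, and 3 at 96 h.

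Kcnq1 and Kcnk1, the 2 most abundant members, were higher on average under furosemide without being called. Kcnq1 had 51.1, 100 and 703 CPM in controls and 78.0, 143 and 533 CPM in furosemide libraries, and 28 of 32 furosemide libraries lay above the median of their own controls. Its log2 fold change was 0.45 (SE 0.15, adjusted p = 0.19, edgeR). Kcnk1 had 32.4, 86.9 and 310 CPM in controls and 55.6, 102 and 543 CPM in furosemide libraries, 23 of 32 above their control median. At 96 h the furosemide libraries of Kcnk1 were split, with 3 of 8 above every control and 5 below every control. The log2 fold change of Kcnk1 over all times was 0.31 (SE 0.15, adjusted p = 0.48, edgeR). It was 0.16 (SE 0.13, adjusted p = 0.81, edgeR) without replicate 4 of the furosemide-fed males at 12 h. Without the 96 h furosemide libraries higher in Lars2 transcript than any 96 h control it was 0.45 (SE 0.16, adjusted p = 0.24, edgeR). The highest control value of both genes was in replicate 4 of the female controls at 48 h, and the highest Kcnk1 furosemide value in replicate 4 of the males at 12 h, both low-similarity libraries. The highest furosemide value of Kcnq1 came from that male library as well.

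**Figure D4:**
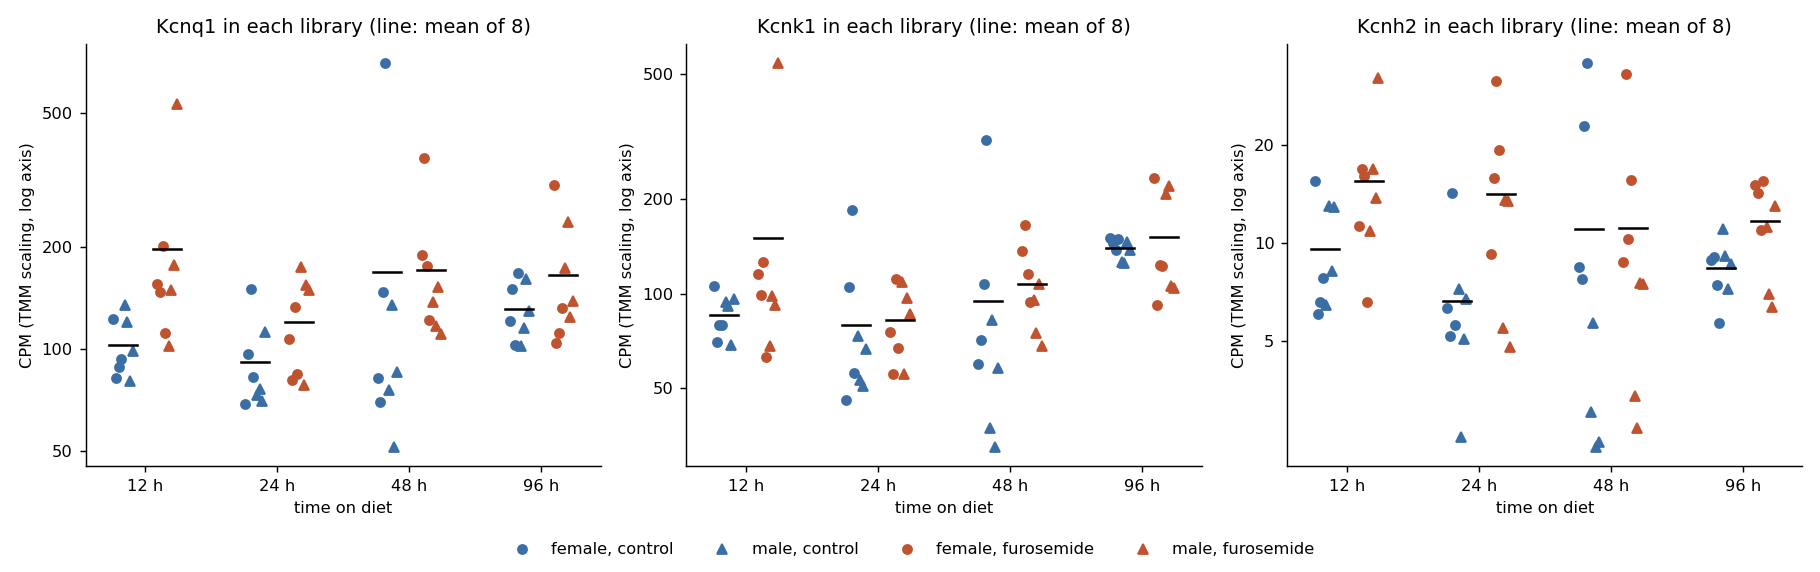
Levels of Kcnq1, Kcnk1 and Kcnh2 (CPM with TMM scaling, log axis) in each library by time, diet and sex, with the mean of 8 libraries as a line. Single libraries stand far above their groups, such as the 703 CPM of Kcnq1 in a female control at 48 h and the 543 CPM of Kcnk1 in a furosemide-fed male at 12 h.

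Without the 3 low-similarity libraries, 4 members were called over all times: Kcnj13, Kcnh2, Kcnq1 and Kcnk1. The background rose as well, to 5.81% of 43343 genes, so the share of members called was near that of all genes. Kcnq1 was then 103 ± 30.4 CPM in 30 controls and 152 ± 61.9 CPM in 31 furosemide libraries (SD), a log2 fold change of 0.56 (SE 0.11, edgeR adjusted p = 0.00047). Kcnk1 had 32.4, 81.1 and 150 CPM in those controls and 55.6, 98.8 and 234 CPM under furosemide (lowest, median and highest), a log2 fold change of 0.33 (SE 0.10, edgeR adjusted p = 0.046). Kcnq1 was also called when only replicate 3 of the female controls at 24 h was left out (0.51, edgeR adjusted p = 0.041) or only replicate 4 of the female controls at 48 h (0.62, edgeR adjusted p = 0.0053).

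**Figure D5:**
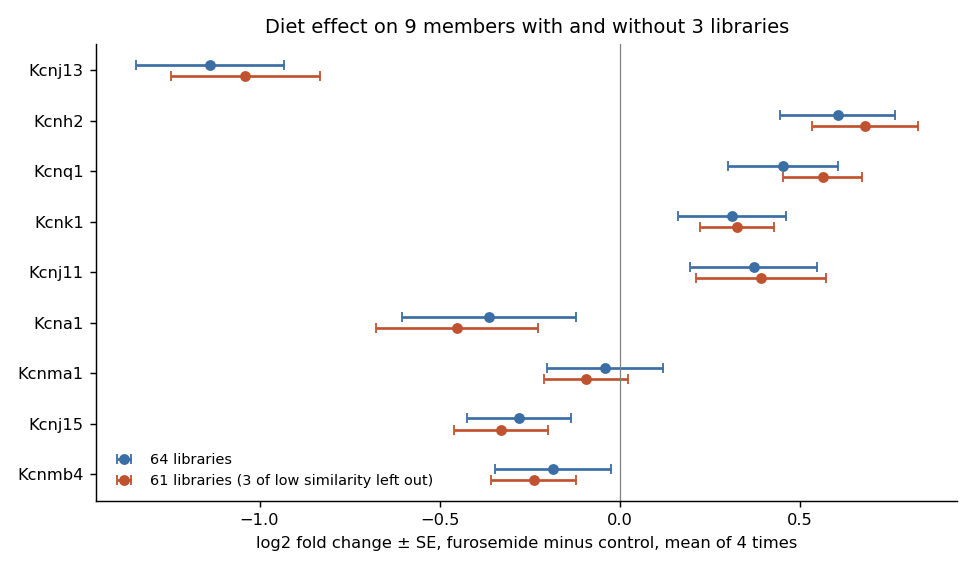
Log2 fold change with SE, furosemide minus control averaged over the 4 times, for 9 members with all 64 libraries and with 61 libraries, the 3 of low similarity left out. Kcnq1 moved from 0.45 (SE 0.15) to 0.56 (SE 0.11) and Kcnj13 from -1.14 to -1.04.

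At 12 h, 0 of the 77 genes were called by edgeR or by DESeq2 (background 0% by edgeR). In edgeR 9 had an unadjusted p under 0.05, 4 higher and 5 lower (of all genes tested, 3663 of 41507). Kcnq1 had the smallest p. It had 80.2, 96.1 and 135 CPM in controls and 102, 153 and 533 CPM under furosemide, with 6 of 8 furosemide libraries above every control. Its log2 fold change was 0.91 (SE 0.31, edgeR adjusted p = 0.39), and 0.54 (SE 0.22, edgeR adjusted p = 0.40) without the low-similarity libraries. Kcnn1, a small-conductance calcium-activated channel, had 2.17, 3.22 and 10.6 CPM in controls and 3.98, 7.11 and 11.4 CPM under furosemide, overlapping ranges, with a log2 fold change of 0.79 (SE 0.31, edgeR adjusted p = 0.43). Kcnj12 (Kir2.2) had -1.53 (SE 0.55, edgeR adjusted p = 0.39), but its control mean of 4.14 ± 8.12 CPM rested on 24.2 CPM in replicate 3 of the male controls, against a control median of 1.25 and a furosemide median of 1.37. Without that library it was -0.23 (SE 0.49).

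At 24 h, 0 of the 77 genes were called by edgeR (background 0.00964%) or DESeq2. An unadjusted edgeR p under 0.05 was found for 4 (of all genes tested, 3000 of 41507). Kcnh2 had 2.52, 5.94 and 14.3 CPM in controls and 4.79, 13.5 and 31.4 CPM under furosemide, with a log2 fold change of 1.03 (SE 0.32, edgeR adjusted p = 0.48). Kcnj13 came next, as given above. Kcnk13, a halothane-inhibited two-pore channel, had a median of 1.80 CPM in controls, up to 5.03, and of 0.588 CPM under furosemide, from 0 to 3.02, with a log2 fold change of -1.66 (SE 0.68, edgeR adjusted p = 0.56).

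At 48 h, most of the channel genes were lower under furosemide and none was called. By edgeR the count was 0 of 77 (background 0.00241%), and by DESeq2 it was 0. At an unadjusted edgeR p under 0.05 were 3 (of all genes tested, 3926 of 41507). Of the 77, 63 (81.8%) were below 0 with a median of -0.25, while of all genes tested 57.0% were below 0 with a median of -0.10. Protein-coding genes of 1 to 2 CPM in controls had a median of -0.24, with 68.5% below 0. The 48 channel genes with at least 2 CPM had a median of -0.26, and the part of gene level in these values was not tested. Under other scaling, filter, block or tool, or without the 3 low-similarity libraries, 53 to 68 of the 77 were below 0 at 48 h. The 12 auxiliary genes were all below 0 with a median of -0.39, and 9 to 12 of them were below 0 under the alternative settings of scaling, filter, block and libraries. In females alone 60 of the 77 were below 0 at 48 h, and in males alone 51. The smallest p belonged to 3 scarce voltage-gated genes with overlapping groups. Kcnc2, a fast delayed rectifier of neurons, had 1.36, 2.39 and 7.78 CPM in controls and 0.763, 1.65 and 2.48 CPM under furosemide, a log2 fold change of -0.99 (SE 0.35, edgeR adjusted p = 0.36). Kcna1 had 0.059, 2.39 and 8.78 CPM against 0.533, 0.795 and 3.29 CPM, with -1.22 (SE 0.49, edgeR adjusted p = 0.42), and -0.77 without replicate 2 of the female controls. Kcnd2, an A-type channel, had 0.944, 1.47 and 4.09 CPM against 0.317, 0.795 and 1.65 CPM, with -1.28 (SE 0.61, edgeR adjusted p = 0.51). In the same comparison the podocyte markers were 5 of 5 below 0 (median -0.88, sums of 23.7 to 729 CPM in controls and 37.6 to 90.3 CPM under furosemide). The erythroid markers were also 5 of 5 below 0 (median -5.24, sums of 0.38 to 414 and 0.25 to 32.6 CPM). The immune markers were 6 of 6 above 0 (median 0.47). None of these markers was called, and their part in the channel values was not tested.

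Kcnq1 at 48 h had 51.1, 83.8 and 703 CPM in controls and 111, 145 and 369 CPM under furosemide. All 8 furosemide libraries of Kcnq1 lay above the control median, and 1 control lay above all of them. Its log2 fold change was 0.17 (SE 0.31, edgeR adjusted p = 0.91). It was 0.85 (SE 0.23, edgeR adjusted p = 0.033) without the low-similarity libraries, when 2.15% of all genes were called, and 0.84 (SE 0.27, edgeR adjusted p = 0.22) without replicate 4 of the female controls alone. It was -0.02 (SE 0.31) without replicate 2 of the furosemide-fed females.

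At 96 h, 0 of the 77 genes were called by edgeR (background 0.0819%) and 1, Kcnj13, by DESeq2 (background 0.419%). In edgeR Kcnj13 was also the only member with an unadjusted p under 0.05 (of all genes tested, 1439 of 41507). The median of the 77 was 0.01 and that of all genes 0.01. Without the 5 furosemide libraries higher in Lars2 than any 96 h control, 63 of the 77 were below 0. The median of the 77 was then -0.33 and that of all genes -0.26. Those libraries include replicates 2, 3 and 4 of the furosemide-fed females. Kcnk4 had 5.36, 7.82 and 16.6 CPM in controls and 4.22, 14.3 and 26.9 CPM under furosemide, with a log2 fold change of 0.71 (SE 0.37, edgeR adjusted p = 1). It changed sign, to -0.53, when the 5 furosemide libraries with more of the mitochondrial tRNA synthetase transcript Lars2 than any 96 h control were left out. In the same comparison the thick ascending limb markers were 6 of 6 above 0 (median 0.95), and the intercalated cell markers 0 of 6 (median -1.14). Late DCT and connecting tubule markers were 0 of 5 above 0 (median -0.38) and principal cell markers 1 of 7 (median -0.89), with no marker of these 4 lists called. Their part in the channel values was not tested.

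The diet effect was compared between times and sexes for all members. By edgeR 0 of the 77 genes were called for a difference between times (background 0.012%) and 0 between sexes (background 0%). DESeq2, run for the difference between sexes, called 0 as well. At an unadjusted edgeR p under 0.05 were 1 member for time and 3 for sex. Of the 41507 genes tested, 3033 and 2411 were. Kcnk3, an acid-sensitive background channel, had the smallest p between sexes, 0.78 (SE 0.32, edgeR adjusted p = 0.81), and Kcnk1 the next, 0.72 (SE 0.30, edgeR adjusted p = 0.81), male minus female. Without the 3 low-similarity libraries Kcnk3 had 0.83 (SE 0.27, edgeR adjusted p = 0.55) and Kcnk1 0.10 (SE 0.21, edgeR adjusted p = 1). Leaving out only replicate 4 of the furosemide-fed males at 12 h, Kcnk1 had 0.41 (SE 0.26).

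Sex in the controls, female minus male, was tested because the rule used the mean over both. By edgeR 0 of the 77 genes were called, against a background of 1.24%. An unadjusted p under 0.05 was found for 8 (of all genes tested, 4880 of 41507). DESeq2 called 1 gene, Kcnk12, and 1.58% of all genes. Kcnk12, a relative of Kcnk13 that carries little or no current alone, had 0.869 ± 1.21 CPM in 16 female controls and 2.06 ± 2.16 CPM in 16 male controls (SD), with ranges of 0 to 4.71 and 0 to 9.26 CPM that overlapped. Its log2 difference was -1.71 (SE 0.54, edgeR adjusted p = 0.12; DESeq2 adjusted p = 0.040), and without replicate 2 of the female controls at 12 h it was -2.72 (SE 0.69, edgeR adjusted p = 0.025). Kcnh2 had a median of 7.78 CPM in female and 6.95 CPM in male controls, with a log2 difference of 0.66 (SE 0.23, edgeR adjusted p = 0.18) that was 0.42 (SE 0.21) without the low-similarity libraries. Kcnk1 had 105 and 77.9 CPM, with 0.53 (SE 0.21, edgeR adjusted p = 0.28), and 0.21 (SE 0.15) without those libraries or 0.33 (SE 0.20) without replicate 4 of the female controls at 48 h alone. In this comparison the early DCT markers were 6 of 6 above 0 (median 0.25, none called) and the erythroid markers 5 of 5 (median 1.23, none called). Below 0 were 5 of 5 podocyte markers (median -1.06, 1 called), 6 of 6 immune markers (median -0.63, 1 called), 6 of 6 intercalated cell markers (median -0.66, none called) and 6 of 7 principal cell markers (median -1.02, none called). Their part in the channel differences was not tested.

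Levels in the control libraries of the 4 times differed for 4 of the 77 genes by edgeR's quasi-likelihood test, Kcnj15, Kcnj11, Kcnk4 and Kcnmb1. That is 5.2% of the members, below the background of 8.41%. In each, the controls at 96 h stood apart. Kcnj15 had medians of 11.2, 13.5 and 12.7 CPM at 12, 24 and 48 h and 5.65 CPM at 96 h, where its 8 libraries ran from 4.60 to 6.99 CPM (adjusted p = 0.015). Kcnk4 had medians of 25.0, 28.0 and 21.9 CPM and then 7.82 CPM (adjusted p = 0.023). Kcnmb1 had 6.66, 8.45 and 7.55 CPM and then 4.72 CPM (adjusted p = 0.029). Kcnj11 (Kir6.2, the pore of the ATP-sensitive channel) went the other way, with medians of 1.90, 2.23 and 2.09 CPM and then 4.72 CPM (adjusted p = 0.016). Kcnk1 also had its highest control median at 96 h, 141 CPM against 85.5, 61.3 and 65.3 CPM, without being called (adjusted p = 0.13).

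The control libraries of 96 h also differed in makeup. The 96 h libraries of both diets had a median depth of 32.4 M against 19.2 M at earlier times and 10603 CPM of Lars2 against 36127 CPM. The odorant receptors summed to a median of 5627 CPM in 96 h controls against 15478, 17565 and 17818 CPM at 12, 24 and 48 h. In the 96 h furosemide libraries that median was 8184 CPM, and some of them held more Lars2 than any 96 h control. The part of these differences in the 96 h diet comparison was not tested. Median sums of marker genes in 96 h controls were 453 CPM for immune cells, against 148 to 207 CPM at earlier times. They were 906 CPM against 426 to 604 CPM for endothelium and 5908 CPM against 3274 to 4394 CPM for late DCT and connecting tubule. Time cannot be told apart from these properties in the controls. Without the low-similarity libraries 11 members were called and 20.5% of all genes. Kcnj15 was called in each of the 32 fits that left out 1 control. Kcnj11 was lost without replicate 1 of the females at 96 h (adjusted p = 0.055) or replicate 2 of the males at 96 h (0.061), and with RLE scaling (0.061). Kcnk4 was lost without replicate 2, 3 or 4 of the females or 1, 3 or 4 of the males at 96 h, with adjusted p from 0.056 to 0.076. Kcnmb1 was lost without replicate 1, 2 or 4 of either sex at 96 h, with adjusted p from 0.059 to 0.080, and with total counts only (0.088). Kcnk4 shares 13.2% of its exonic bases with Catsperz on the same strand, which had 0.449 CPM.

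Other genes of potassium handling, 36 in a list of sodium pump subunits, potassium-chloride cotransporters, WNK pathway genes and other potassium-permeable channels, were all tested. None was called in a diet comparison by edgeR, and 5, 1, 4 and 5 had an unadjusted p under 0.05 at 12, 24, 48 and 96 h. Of the 41507 genes tested, 3663, 3000, 3926 and 1439 had one at these times. DESeq2 values were not taken for the 36 genes. Their medians were 0.23, -0.09, 0.12 and 0.01 at 12, 24, 48 and 96 h and -0.01 over all times. Over all times 9 of 36 had an unadjusted p under 0.05 (of all genes tested, 4036 of 41507). The potassium-chloride cotransporter genes Slc12a4 (0.46, SE 0.14, edgeR adjusted p = 0.10) and Slc12a7 (0.40, SE 0.12, edgeR adjusted p = 0.13) had the smallest p. In the controls, 10 of the 36 differed between times, where 8.41% of all genes and 12.4% of protein-coding genes did.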

How the data were processed

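RNA of early DCT from 64 samples was made into full-length cDNA with SMART-Seq HT and into libraries with Nextera XT, per the labels' protocols; neither strand nor molecular identifiers are kept. The authors made the deposited values, estimated counts per gene, using Salmon and GRCm38.p6, both named in the submitters' processing notes. Which annotation release, trimming and gene summary they used is not given in the sources used here. Of the values, 55.0% were whole; all were rounded. GENCODE M21 matched 54097 of 54331 genes and gave exonic lengths.

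Counts were tested with edgeR 4.0.16 in R 4.3.3 (quasi-likelihood, TMM, filterByExpr with a minimum count of 10, 41507 genes), with 1 mean for each of 16 groups in 1 fit and Benjamini-Hochberg adjustment over all genes. Fold changes of low genes are shrunk by edgeR's prior count. SE is the fold change over the root of F. The procedure was tested on simulated data. Alternatives were DESeq2 1.42.0, RLE or no scaling factors, no filter, a replicate block, libraries left out and other membership thresholds. Named genes were those called, the 3 smallest p in each diet comparison by time, over all times and for sex in controls, the 12 highest per length, each family's leader, and 6 known from kidney work (Kcna1, Kcnma1, Kcnq1, Kcnk1, Kcnk5, Kcnj15); Kcne1, Kcnk3 and single values named elsewhere were chosen after their values were seen. A gene that the rule names at 96 h is not reported here. The members and lists were chosen with earlier results of these data known. No 2 libraries of a group agreed within counting noise (smallest chi-square per degree of freedom 14.6).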

Additional observations from a re-analysis of the deposited data

Results flagged for a closer look

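For 8 members, each of the 16 groups of 4 libraries was searched for a library far from the other 3, by the gap to its nearest neighbour as a share of the group's range (Dixon's test at the 95% level). Of 128 groups, 10 were found, where chance finds about 1 in 20.

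Kcnq1 had 703 CPM in replicate 4 of the female controls at 48 h, against 69.8 to 147 CPM in the other 3. It had 306 CPM in replicate 1 of the furosemide-fed females at 96 h, against 104 to 132 CPM, and 113 CPM in replicate 4 of the male controls at 24 h, against 69.9 to 76.3 CPM. Kcnk1 had 543 CPM in replicate 4 of the furosemide-fed males at 12 h, against 67.9 to 98.1 CPM. Kcnh2 had 14.3 CPM in replicate 3 of the female controls at 24 h, against 5.19 to 6.29 CPM.

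Kcnj13 had 5.36 CPM in replicate 2 of the furosemide-fed males at 12 h, against 1.49 to 2.12 CPM, and this was the 1 furosemide library above the median of its own controls. Kcnj11 had 4.88 CPM in replicate 2 of the furosemide-fed females at 48 h, against 1.65 to 1.88 CPM. It had 4.61 CPM in replicate 2 of the male controls at 12 h, against 1.69 to 2.01 CPM, and 3.26 CPM in replicate 3 of the male controls at 24 h, against 0.68 to 1.08 CPM. Kcnmb1 had 6.85 CPM in replicate 3 of the female controls at 96 h, against 4.75 to 5.02 CPM.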

How the results depend on the processing

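The number of members called for diet stayed at 0 at 12 and 24 h, for diet by time and for diet by sex under each alternative run. Without the 3 low-similarity libraries it was 1 at 48 h (Kcnq1), 4 over all times and 11 for time in controls. With DESeq2 it was 1 at 96 h (Kcnj13), 2 over all times (Kcnj13 and Kcnh2) and 1 for sex in controls (Kcnk12). Leaving out 1 library at a time gave 1 to 3 over all times, 0 to 1 for sex in controls and 2 to 8 for time in controls. Kcnq1 at 48 h, 0.17, was 0.839, not called, without replicate 4 of the female controls. The cause of these shifts was not tested. Values that changed sign were Kcnq1 at 48 h (-0.024 without replicate 2 of the furosemide-fed females), Kcnk4 (-0.53) at 96 h without the furosemide libraries high in Lars2, and Kcnma1 over all times (0.032 with a replicate block, -0.04 without).

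Genes called among all tested moved more: over all times 244, against 2518 without the low-similarity libraries, 485 with DESeq2, 414 with total counts only, 124 with the block, and 157 to 2123 with 1 library left out; at 48 h 1, against 930 and 112 with the first 2; at 96 h 34, against 134, 174, 79 with total counts only, and 3 without the libraries high in Lars2. At 12 h, 0 became 91 with DESeq2 and 3 without the low-similarity libraries. At 24 h, 4 became 97 with DESeq2, 15 with total counts only, 9 with RLE scaling and 0 with the block. At 96 h the block gave 22. Diet by sex went from 0 to 34 with DESeq2, diet by time from 5 to between 1 and 21, and time in controls from 3492 to 8906 without the low-similarity libraries. With 1 library left out the counts ran from 0 to 2 at 12 h, 0 to 11 at 24 h, 0 to 6 at 48 h, 18 to 90 at 96 h, 0 to 6 for diet by time and 2305 to 7207 for time in controls. Scaling by total counts moved the median of all genes to -0.40 at 48 h, with members 0.23 lower still, and to -0.21 over all times, with members 0.07 lower still. Without the libraries high in Lars2 the median of all genes at 96 h was -0.26 and that of the members -0.33.

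No sign was found that replicate numbers pair the samples, which does not exclude pairing. Of 32 pairs of control and furosemide libraries with the same number, 10 deviated together with a correlation over 0.1, and the median was -0.10, against 0.05 for other numbers. With the replicate block, 0 members were called at each time and 1, Kcnj13, over all times. DESeq2 was not run for diet by time and time in controls, and the block not for the controls. Membership at 2 CPM gave 48 genes, at 0.5 CPM 87, and over all 64 libraries 74.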
